A study of Mus musculus with 38 samples.

Results

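Retinoic acid (RA) acts through nuclear receptors, and 10 genes of this superfamily were followed through RA-driven differentiation of mouse embryonic stem cells (mESCs): the RA receptors Rara, Rarb and Rarg, the retinoid X receptors Rxra, Rxrb and Rxrg, the COUP-TF family genes Nr2f1, Nr2f2 and Nr2f6, and Nr6a1, which encodes germ cell nuclear factor (GCNF). They were taken by name and not by a rule on their levels, but with earlier results of these data known. All 10 were among the 23481 genes of the bulk table and present in the single-cell tables. RA receptors bind DNA as heterodimers with retinoid X receptors on direct repeats of a hexamer half-site, recruit corepressors without ligand and exchange them for coactivators once RA is bound. COUP-TFs (Nr2f1 and Nr2f2 are COUP-TFI and COUP-TFII) are orphan receptors that bind similar repeats, are known to respond to RA and are known for roles in neural and vascular development. GCNF is an orphan receptor known to silence Pou5f1 when pluripotent cells differentiate.

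The starting cells were E14 mESCs, an established line, kept in 2i/L, which holds 1 µM of the MEK inhibitor PD0325901, 3 µM of the GSK3 inhibitor CHIR99021 and 1000 U/ml LIF. All differentiated samples were derived from them in N2B27 medium with 0.25 µM all-trans RA and without the inhibitors and LIF, so that RA and the loss of 2i/L cannot be told apart. Bulk RNA-seq covered 25 libraries: 2 of mESCs, 1 at each of 6, 12, 24, 36, 48, 60, 72, 84 and 96 h, 1 for each of 4 gates sorted at 48 h (PDGFRA- cells by quartile of CD24, Q1 to Q4), 1 for each of 4 gates sorted at 72 h (PDGFRA- cells by tercile of CD24, T1 to T3, and PDGFRA+/CD24- cells), 2 of PDGFRA-/CD24+ ectoderm-like cells and 2 of PDGFRA+/CD24- XEN-like cells sorted at 96 h (XEN stands for extraembryonic endoderm), and 1 long-term culture of each. The cultures were kept in N2B27 with 20 ng/ml EGF and 10 ng/ml FGF2, the ectoderm-like cells adherent to passage 5 and the XEN-like cells for 3 weeks as floating aggregates. Single cells were measured by SCRB-seq, which counts unique molecular identifiers (UMIs), on 1 plate at each of 9 times, and by SMART-seq2, which reads whole transcripts, at 4 times.

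Bulk libraries held between 1063830 and 2459483 UMIs, and levels are given as counts per 1000000 UMIs (CPM). Precision was limited by the low number of UMIs of these genes, between 44 (Rxrg) and 1049 (Nr6a1) summed over all 25 libraries. Intervals are exact 95% intervals that cover counting error only, and where a group had no UMI a fold is given as a bound against 3 UMIs over that group. In the 4 sorted libraries marker sums followed the labels: 11 XEN-like markers (Gata6, Sox17, Pdgfra and others) summed to 6665 to 12049 CPM in XEN-like and 485 to 1779 CPM in ectoderm-like libraries, and 11 ectoderm-like markers (Pax6, Sox1, Nes and others) to 323 to 611 and 2803 to 3270 CPM. The lists include the sort genes Pdgfra and Cd24a, so that the match was in part fixed by the sort. In XEN-like libraries Sparc made up 47.4% of the XEN-like and Mdk 63.7% of the ectoderm-like marker sum. The second ectoderm-like library stood apart from the first in Pdgfra, at 36.8 CPM against 3.33 CPM. Markers of mESCs summed to 13436 to 18353 CPM in mESCs and still to 4524 to 6267 CPM in XEN-like libraries, 95.4% of it from Dppa5a, against 432 to 790 CPM in ectoderm-like libraries. Mesoderm markers reached at most 19.5 CPM in the mESC libraries and those sorted at 96 h. Twist1 made up 94.4% of their mean sum in sorted ectoderm-like cells. In the ectoderm-like culture they summed to 41.8 CPM. In the cultures Cd24a went against the label, as it was at 18.7 CPM in the ectoderm-like and at 421 CPM in the XEN-like culture, while Pdgfra, at 23.02 and 34.5 CPM, was higher in the XEN-like one. Bulk levels cannot tell fewer cells that express a gene from less RNA per cell.

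The sequences upstream of these genes were searched for the half-sites that retinoid receptors and COUP-TFs are known to bind, on both strands: namely AGGTCA, its variant AGTTCA, as well as GGTTCA and the variant GGGTCA. Windows of 300 bases, 250 before to 50 after the start, were taken from RefSeq on GRCm38.p6, where all 10 members were found. Direct repeats of these half-sites were rare, with 5 bases between them in 32 of 32851 promoters (0.0974%), with 2 bases in 88 (0.268%) and with 1 base in 73 (0.222%), whereas a single half-site stood in 43.7% of promoters. Of the 10 members, 8 held a half-site in at least 1 promoter. This count is per gene and most members had more than 1 promoter, so that it cannot be set against the share per promoter. Among the members, Rarb held a direct repeat, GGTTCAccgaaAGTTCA at chr14:16575513-16575529 (minus strand), 53 to 37 bases before the start. Below are this promoter and the first listed promoters of Rarg and Nr6a1, which rose early, and of Nr2f2, which rose late, 5′ to 3′ on the strand of the gene with half-sites in capitals.
Rarb, chr14:16575427-16575726, minus strand: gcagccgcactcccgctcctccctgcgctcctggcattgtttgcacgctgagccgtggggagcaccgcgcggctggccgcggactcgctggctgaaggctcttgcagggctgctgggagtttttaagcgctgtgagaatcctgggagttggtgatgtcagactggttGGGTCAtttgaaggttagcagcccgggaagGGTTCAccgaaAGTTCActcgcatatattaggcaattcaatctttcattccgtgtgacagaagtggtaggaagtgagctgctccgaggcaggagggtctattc
Rarg, chr15:102257473-102257772, minus strand: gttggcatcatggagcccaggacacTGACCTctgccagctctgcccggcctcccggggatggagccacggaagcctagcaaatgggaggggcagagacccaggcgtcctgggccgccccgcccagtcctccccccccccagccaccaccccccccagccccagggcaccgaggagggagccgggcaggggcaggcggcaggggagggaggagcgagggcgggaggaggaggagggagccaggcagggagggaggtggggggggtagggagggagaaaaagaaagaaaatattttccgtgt
Nr2f2, chr7:70366697-70366996, minus strand: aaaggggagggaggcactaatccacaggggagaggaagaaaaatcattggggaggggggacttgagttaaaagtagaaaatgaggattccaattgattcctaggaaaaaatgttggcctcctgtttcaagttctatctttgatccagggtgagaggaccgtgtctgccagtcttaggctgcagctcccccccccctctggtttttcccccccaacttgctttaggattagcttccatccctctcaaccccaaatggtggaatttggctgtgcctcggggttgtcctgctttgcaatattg
Nr6a1, chr2:38926412-38926711, minus strand: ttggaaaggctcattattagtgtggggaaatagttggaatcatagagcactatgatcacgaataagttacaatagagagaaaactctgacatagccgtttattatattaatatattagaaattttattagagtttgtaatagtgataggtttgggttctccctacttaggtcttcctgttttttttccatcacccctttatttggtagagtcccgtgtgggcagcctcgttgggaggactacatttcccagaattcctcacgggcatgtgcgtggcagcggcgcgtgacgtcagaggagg
The Rarb promoter held 3 half-sites and the Rarg promoter held 1, in reverse orientation. Neither the Nr2f2 promoter nor the first Nr6a1 promoter held any, while a second Nr6a1 promoter held 3. The Nr2f2 window had 2 CpG dinucleotides, against a median of 7 over all promoters and 17 in the Rarb window. A match here describes the sequence only.

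The RA receptors rose at different times, Rarg and Rara within hours and Rarb over days. Rarg (chr15:102234938-102257517) was the earliest, as it stood at 4.37 and 5.22 CPM in the mESC libraries and at 33.7 CPM 6 h after RA addition, 7.03-fold higher (4.30 to 11.9). It then declined through 28.2, 23.4 and 12.1 CPM at 12, 24 and 36 h to 3.66 CPM at 48 h, and stayed between 1.04 and 2.18 CPM from 60 to 96 h. The level at 6 h was the highest of Rarg in any bulk library. Rarb (chr14:16430839-16819156), the receptor gene best known as a direct RA target, had no UMI in either mESC library. Its level was 1.96, 0.881, 4.48 and 9.08 CPM at 6, 12, 24 and 36 h, and then 16.7 and 23.4 CPM at 48 and 60 h, the latter at least 35.8-fold above mESCs. From there it was 20.2, 18.7 and 9.74 CPM at 72, 84 and 96 h. Rara (chr11:98927818-98974942) was at 5.25 and 3.05 CPM in mESCs and rose to 11.2 CPM at 6 h and 11.9 CPM at 12 h, 2.87-fold above mESCs (1.54 to 5.46), before it fell back to 4.07 CPM at 48 h. Rarg and Rara thus had their highest level in the time course at 6 h and 12 h, and Rarb at 60 h.

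**Figure D1:**
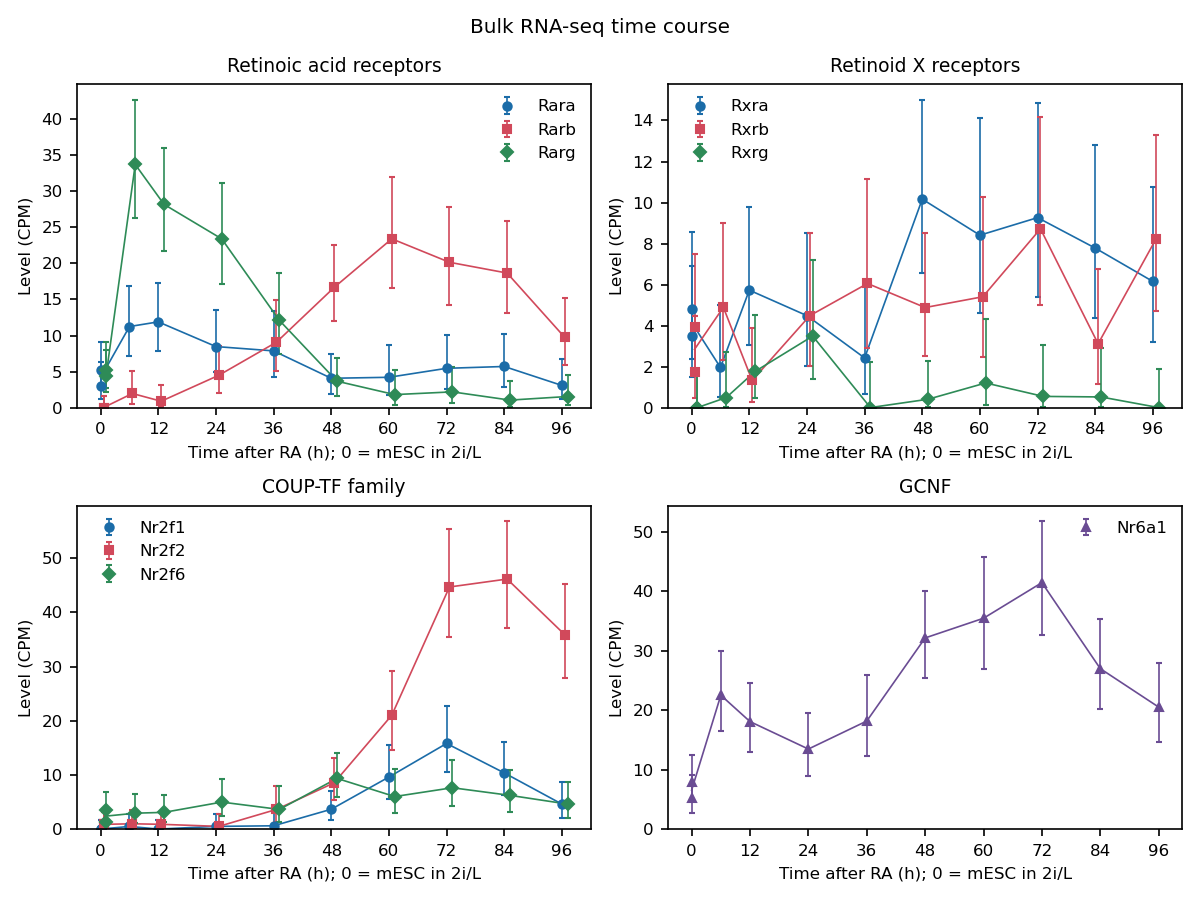
Level of each member in the bulk time course, in CPM on the vertical axis against hours after RA addition, with both mESC libraries at 0 h. Points are single libraries with exact 95% intervals for counting error, slightly offset, and lines start at the mean of the mESC libraries. Rarg was highest at 6 h (33.7 CPM), Rarb at 60 h (23.4 CPM), Nr6a1 at 72 h (41.4 CPM) and Nr2f2 at 84 h (46.1 CPM).

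By SCRB-seq Rarg again rose first and Rarb late. Over 2448 wells with more than 2000 UMIs, Rarg was at 0.223 UMIs per 10000 at 0 h (0.161 to 0.301) and at 1.38 at 6 h (1.24 to 1.54). It remained between 1.07 and 1.15 from 12 to 36 h and fell to 0.300 at 48 h and 0.0349 at 60 h. The share of cells with a Rarg UMI was 10.6% at 0 h and 48.96% at 6 h, or 2.13% and 24.5% when each cell was thinned to 2000 UMIs. Rarb had no UMI in 282 cells at 0 h, which allows a share of cells with a UMI, not of cells expressing the gene, of up to 1.06% (3 counts), and reached 0.628 UMIs per 10000 at 60 h and 0.779 at 72 h (0.635 to 0.946), where 21.7% of cells held a UMI, or 11.9% after thinning. Rara, in contrast to bulk, was highest at 36 h by SCRB-seq (0.291 UMIs per 10000), and was at 0.101 at 0 h, 0.139 at 6 h and 0.125 at 12 h. At 96 h Rarb had 3 UMIs in 137 cells by SCRB-seq (0.0413 per 10000, 0.00851 to 0.121) and 19 UMIs in the bulk library (9.74 CPM). Put on the same scale, the bulk level lay within the SCRB-seq interval at 96 h but below it at 60 and 72 h. There bulk was at 23.4 and 20.2 CPM, and the SCRB-seq intervals were 0.515 to 0.758 and 0.635 to 0.946 UMIs per 10000. Rarb thus fell more between 72 and 96 h by SCRB-seq than in bulk. At 24 h no Rarb UMI was found in 290 cells, while 13 UMIs were found at 12 h, so that the SCRB-seq series of Rarb was not a steady rise before 36 h. The 9 plates share 384 well names, and no kept well was identical to another. Same-named wells of different plates correlated by 0.0133 to 0.0266 more than other wells, whose part in these levels was not tested.

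**Figure D2:**
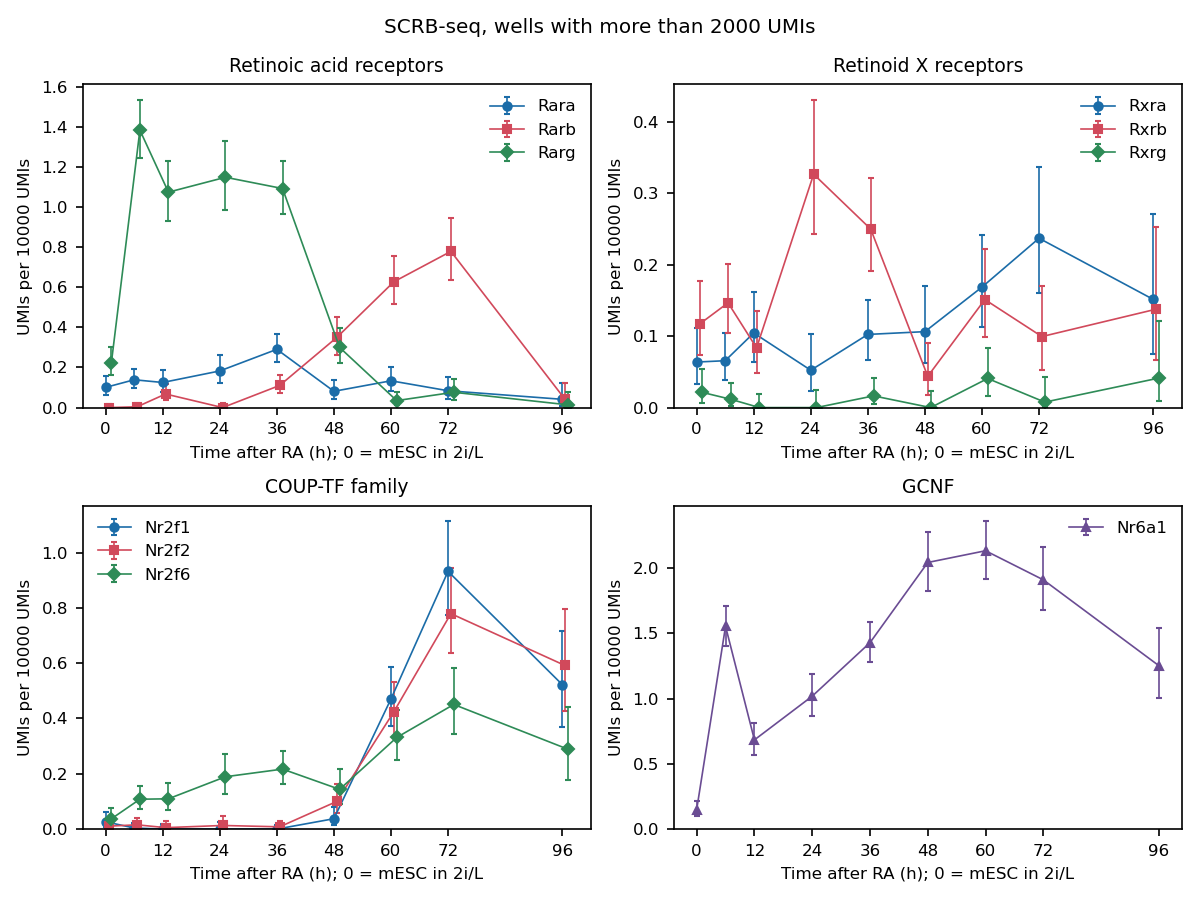
SCRB-seq level of each member, in UMIs per 10000 UMIs summed over wells with more than 2000 UMIs, against hours after RA addition. There is 1 plate per time, and bars are exact 95% intervals for counting error. Rarg rose from 0.223 to 1.38 between 0 and 6 h, and Rarb, Nr2f1 and Nr2f2 were at 0.779, 0.932 and 0.779 at 72 h.

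SMART-seq2 values are RPKM scaled to a common total per cell, so that levels could be compared between genes per length. Of the RA receptors, Rarg had the highest mean at 0 h (27.1 normalised RPKM, SD 27.1 over 82 cells), at 12 h (39.4, SD 27.2, 86 cells) and at 24 h (39.6, SD 31.1, 89 cells), and the lowest at 48 h (11.2, SD 23.6, 82 cells). Cells above 1 normalised RPKM of Rarg made up 79.3%, 97.7%, 95.5% and 29.3% at 0, 12, 24 and 48 h. For Rarb the mean rose from 8.33 to 19.6, 22.5 and 52.2 normalised RPKM, and 32.9%, 46.5%, 57.3% and 67.1% of cells were above 1, so that Rarb was already higher at 12 h in these cells. Rarb was then the member with the highest mean at 48 h, but its SD of 64.5 exceeded the distance to Nr6a1 (43.4, SD 31.9), next in order. Unlike SCRB-seq and bulk, where mESCs held no Rarb UMI, SMART-seq2 placed 27 of 82 mESCs above 1 normalised RPKM. All 3 RA receptors were above 1 in the same cell in 12.2% of cells at 0 h, 30.2% at 12 h, 38.2% at 24 h and 10.98% at 48 h, with exact 95% intervals of 6.01 to 21.3% and 5.14 to 19.8% at the outer times. At least 1 RA receptor was above 1 in 89.02% of mESCs and in 86 of 86 cells at 12 h. SMART-seq2 levels come from 1 culture per time and carry no test.

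**Figure D3:**
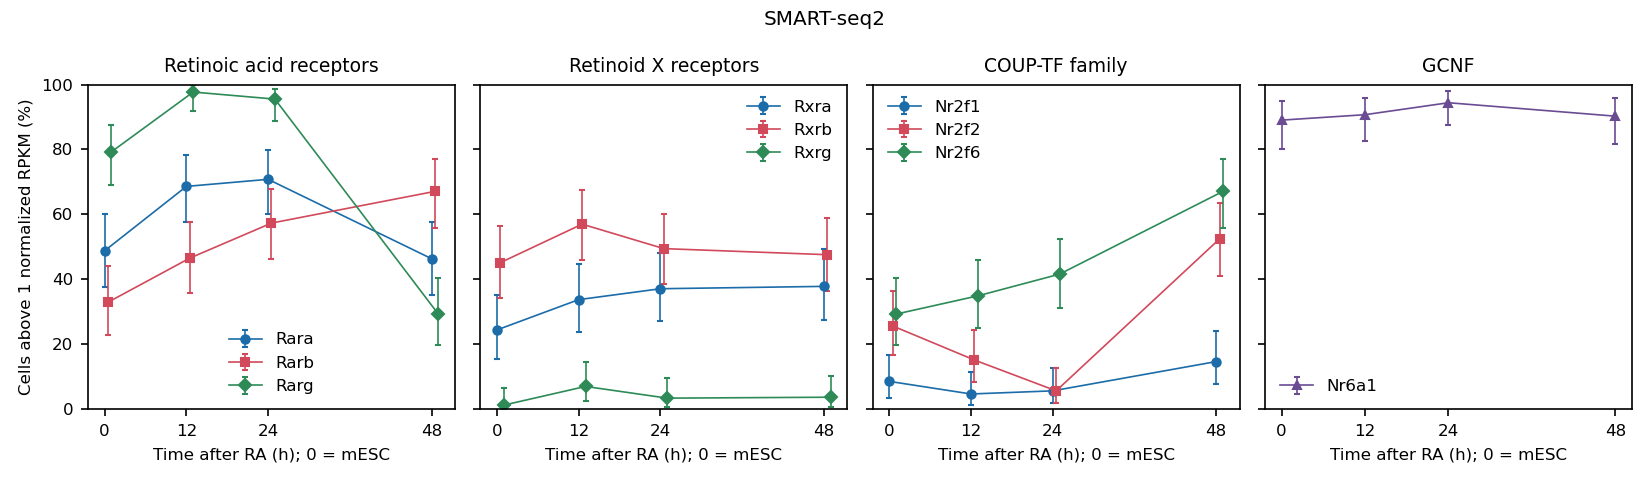
Share of cells above 1 normalised RPKM for each member in SMART-seq2, in percent, against hours after RA addition, with exact 95% binomial intervals over 82, 86, 89 and 82 cells. Rarg fell from 95.5% at 24 h to 29.3% at 48 h, Nr2f2 rose from 5.62% to 52.4%, and Nr6a1 stayed between 89.02% and 94.4%.

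The retinoid X receptors are the heterodimer partners of the RA receptors, and their levels stayed at or below 10.2 CPM throughout the time course. Rxra (chr2:27676440-27762957) was at 3.50 and 4.79 CPM in mESCs, between 1.96 and 5.73 CPM from 6 to 36 h and between 6.15 and 10.2 CPM from 48 to 96 h. Its highest level in the time course, at 48 h, was 2.45-fold above mESCs (1.30 to 4.71). Rxrb (chr17:34031812-34038399) was at 3.94 and 1.74 CPM in mESCs and between 1.32 and 8.72 CPM afterwards, and its levels of 8.72 CPM at 72 h and 8.20 CPM at 96 h were 3.07-fold (1.39 to 6.95) and 2.89-fold (1.30 to 6.53) above mESCs. SCRB-seq did not show this late rise of Rxrb. There it was at 0.117, 0.326, 0.0437, 0.0993 and 0.138 UMIs per 10000 at 0, 24, 48, 72 and 96 h. Rxra was at 0.0637 at 0 h, 0.106 at 48 h and 0.237 at 72 h, its highest SCRB-seq level. Rxrg (chr1:167598384-167639623) had no UMI in mESCs and never more than 7 UMIs at a time point, 3.49 CPM at 24 h, at least 5.33-fold above mESCs. In SMART-seq2 the share of cells above 1 normalised RPKM went from 24.4% to 37.8% for Rxra between 0 and 48 h, was 45.1%, 56.98%, 49.4% and 47.6% for Rxrb at the 4 times, and never exceeded 6.98% for Rxrg. An RA receptor and a retinoid X receptor were found together above 1 in 48.8% of cells at 0 h (37.6 to 60.1%), 69.8% at 12 h, 71.9% at 24 h and 59.8% at 48 h (48.3 to 70.4%). At 12 and 24 h at least 1 RA receptor was above 1 in 86 of 86 and 88 of 89 cells. The joint share at these times was therefore that of cells with a retinoid X receptor above 1, and says nothing about pairing.

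The COUP-TF genes Nr2f1 and Nr2f2 rose late. Nr2f2 (chr7:70351944-70366735) was at 0.875 and 0.871 CPM in mESCs, between 0.498 and 0.978 CPM from 6 to 24 h, and at 3.63, 8.54, 21.02 and 44.7 CPM at 36, 48, 60 and 72 h. Its level of 46.1 CPM at 84 h was 52.9-fold above mESCs (19.9 to 198), a wide interval since the mESC libraries held 4 UMIs. Nr2f1 (chr13:78188973-78199757) had no UMI in mESCs and at most 1 UMI in a library up to 36 h, and was at 3.66, 9.61 and 15.8 CPM at 48, 60 and 72 h, the last at least 24.1-fold above mESCs. It then decreased to 10.4 and 4.61 CPM at 84 and 96 h, whereas Nr2f2 was still at 35.9 CPM. Nr2f6 (chr8:71374123-71381960), which encodes a repressor also called EAR2, was present from the start at 3.50 and 1.31 CPM and was highest at 48 h with 9.35 CPM, 3.90-fold above mESCs (1.82 to 8.85). SCRB-seq gave the same timing for Nr2f1 and Nr2f2. Nr2f1 had 5 UMIs at 0 h and none at 12, 24 and 36 h (285, 290 and 334 cells). It was at 0.471 and 0.932 UMIs per 10000 at 60 and 72 h, and Nr2f2 was at 0.424 and 0.779. The timing of Nr2f6 differed, as it was at 0.217, 0.144, 0.331 and 0.451 at 36, 48, 60 and 72 h. Its highest SCRB-seq level was thus at 72 h. At 72 h, 27.7% of cells held a Nr2f1 UMI and 22.6% a Nr2f2 UMI, or 14.04% and 11.9% after thinning. In SMART-seq2, Nr2f2 was above 1 normalised RPKM in 25.6% of mESCs, 15.1% of cells at 12 h, 5.62% at 24 h and 52.4% at 48 h, and the bulk mESC level did not show this early excess over 24 h beyond counting error (4 UMIs in 2 libraries and 1 UMI).

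Nr6a1 (chr2:38723370-38927688) was the member with the most UMIs and rose in 2 steps. It was at 7.87 and 5.22 CPM in mESCs, at 22.5 CPM at 6 h (3.44-fold, 2.12 to 5.64), at 18.1, 13.4 and 18.2 CPM at 12, 24 and 36 h, and at 32.1, 35.4 and 41.4 CPM at 48, 60 and 72 h, 6.33-fold above mESCs at the last of these (4.10 to 10.0). The level then fell to 26.96 and 20.5 CPM at 84 and 96 h. SCRB-seq held the same peak at 6 h and the dip after it, with 0.149, 1.55, 0.683 and 1.02 UMIs per 10000 at 0, 6, 12 and 24 h and 2.13 at 60 h, and the share of cells with a UMI went from 6.38% at 0 h to 48.7% at 6 h and 54.2% at 60 h (3.19%, 25.97% and 31.5% after thinning). By SMART-seq2, in contrast, Nr6a1 was already above 1 normalised RPKM in 89.02% of mESCs and its mean rose from 27.6 to 43.4. Pou5f1, the textbook target that GCNF represses, was at 265 and 292 CPM in mESCs, 306 CPM at 6 h, 233 CPM at 24 h, and by 48 and 72 h at 56.5 and 28.3 CPM. Pou5f1 was thus not lower at 6 h, when Nr6a1 had its first peak, and was lower when Nr6a1 had its second. Nanog, another pluripotency gene with reported GCNF binding, was highest at 24 h (382 CPM, against 163 and 155 CPM in mESCs) and at 81.5 CPM at 96 h.

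Members that changed at least 2-fold are counted here beside the share of all genes, without a test. With library totals as the scale and at least 10 UMIs in 1 library, 3 of 5 members were higher at 6 h (Rara, Rarg and Nr6a1) and 1 was lower (Rxra), against 4.49% and 7.24% of genes. At 24 h it was 4 of 5 higher, Rara, Rarg, Nr2f6 and Nr6a1, and 0 lower, against 10.7% and 8.77%, but only Rarg kept a 2-fold rise with TMM scaling, against the first mESC library alone or relative to Gapdh, as the other members lay between 2.04- and 2.08-fold. At 48 h 5 of 8 were higher (Rarb, Rxra, Nr2f2, Nr2f6 and Nr6a1) and 0 lower, against 21.5% and 9.43% (Rxra fell short with TMM scaling, and Rxrb was added against the second mESC library alone), and at 96 h 4 of 7 were higher (Rarb, Rxrb, Nr2f2 and Nr6a1) and 1 lower (Rarg), against 26.8% and 10.8%. On this scale the median gene itself moved by 0.13, 0.29 and 0.36 (log2) at 24, 48 and 96 h, and by -0.04, -0.05 and -0.02 with TMM scaling. The rule of at least 10 UMIs in 1 library can let a gene in through the group where it is high. It did so for Nr2f6 at 24 h, for Rarb, Nr2f2 and Nr2f6 at 48 h, and for Rarb, Rxrb and Nr2f2 at 96 h. These were below 10 UMIs in both mESC libraries and would not have been counted otherwise. The gates and cultures below used the same rule.

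The sorted cells at 96 h, with 2 libraries per group, allowed a test against mESCs, for the 7 members with enough counts (Rarg, Rxrg and Nr2f6 did not pass the filter on low counts). Rarb, Nr2f1 and Nr2f2 had at most 2 UMIs in an mESC library and passed this filter through the sorted cells alone. In ectoderm-like cells Rarb, Nr2f1, Nr2f2 and Nr6a1 exceeded their mESC level, 4 of 7 tested members, against 9.85% of the 8947 genes tested, and none was lower, against 9.28%, with 19.1% called in either direction. In XEN-like cells Rarb and Nr2f2 were higher, 2 of 7, against 12.3% of genes, and none was lower, against 10.5% (22.8% in either direction). Nr2f1 and Nr2f2 were lower in XEN-like than in ectoderm-like cells, 2 of 7, against 5.74% of genes, and none was higher, against 6.99% (12.7% in either direction). Calls are at an adjusted p below 0.05 by edgeR's quasi-likelihood test. For the 3 counts of none, 0 members had an unadjusted p below 0.05 and DESeq2 called 0. Rarg was called lower in XEN-like cells than in mESCs once the filter on low counts or either ectoderm-like library was left out, and Nr2f6 was called lower in XEN-like than in ectoderm-like cells once the filter was left out. With 2 libraries per group the p-values measure the spread between these libraries.

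For Nr2f2 the ectoderm-like libraries were at 59.5 and 42.6 CPM, the XEN-like libraries at 15.7 and 11.8 CPM and the mESC libraries at 0.875 and 0.871 CPM, 3 levels that did not overlap. The log2 fold change over mESCs was 5.46 ± 0.48 (SE, adjusted p = 3.14e-05) in ectoderm-like cells and 3.69 ± 0.54 (adjusted p = 0.000574) in XEN-like cells, and between both lineages it was -1.77 ± 0.35 (adjusted p = 0.00769). Nr2f1 was at 25.6 and 13.6 CPM in ectoderm-like cells, at 0 and 1.82 CPM in XEN-like cells and at 0 in both mESC libraries. Its ectoderm-like level was at least 30.6-fold above mESCs (adjusted p = 0.00149) and 30.7-fold above XEN-like cells (8.17 to 259, adjusted p = 0.00912), while the XEN-like level, from 2 UMIs, was not called different from mESCs (adjusted p = 0.283). Both calls between the lineages were lost without the first ectoderm-like or the first XEN-like library. For Nr2f2 the log2 difference was then -1.54 (adjusted p = 0.0950) and -1.85 (adjusted p = 0.0521), close to that over all libraries. For Nr2f1 it was -4.10 (adjusted p = 0.150) and -3.12 (adjusted p = 0.0799), against -4.63 over all libraries, and without the second XEN-like library, which held both UMIs, the XEN-like level was 0. Within the ectoderm-like group, the library with the higher Pdgfra and XEN-like markers (1779 against 485 CPM) was the lower one for Rarb, Nr2f1, Nr2f2 and Nr6a1, and the part of these markers in the levels was not tested.

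Rarb was at 25.01 and 9.05 CPM in ectoderm-like, at 16.8 and 5.47 CPM in XEN-like and at 0 in mESC libraries. It was at least 26.9-fold above mESCs in ectoderm-like cells (adjusted p = 0.00192) and at least 19.4-fold in XEN-like cells (adjusted p = 0.00285). Both lineages overlapped for Rarb, and the log2 difference of -0.45 ± 0.58 was within the spread of the libraries (adjusted p = 0.678) and turned to 0.42 without the first ectoderm-like library. Nr6a1 was at 47.8 and 32.3 CPM in ectoderm-like cells, 17.8 and 17.3 CPM in XEN-like cells and 7.87 and 5.22 CPM in mESCs. Its log2 fold change was 2.29 ± 0.38 in ectoderm-like cells (adjusted p = 0.00162) and 1.21 ± 0.40 in XEN-like cells, which missed the threshold (adjusted p = 0.0504) and passed it with other scalings. Between both lineages the difference of -1.08 ± 0.36 for Nr6a1 missed it as well (adjusted p = 0.0708), although the libraries did not overlap.

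Rara, Rxra and Rxrb were not called in any of the 3 comparisons. The ectoderm-like libraries were above the XEN-like ones in each of them, with Rara at 7.23 and 7.11 against 0.508 and 3.65 CPM, Rxra at 7.78 and 9.69 against 3.56 and 2.73 CPM, and Rxrb at 8.89 and 5.81 against 4.57 and 2.73 CPM. Their log2 differences between XEN-like and ectoderm-like cells were -1.92 (Rara, adjusted p = 0.152), -1.33 (Rxra, adjusted p = 0.162) and -0.85 (Rxrb, adjusted p = 0.409). The 3 members under the count filter are given by their levels only. Rarg had 4 UMIs in ectoderm-like (1.11 and 1.29 CPM) and 1 UMI in XEN-like cells (0.508 and 0 CPM), against 4.37 and 5.22 CPM in mESCs. Nr2f6 was at 7.78 and 5.17 CPM in ectoderm-like and at 1.02 and 0.911 CPM in XEN-like cells, a ratio of 6.72 with a counting interval of 2.02 to 35.1, and Rxrg stayed at or below 2.22 CPM. The mean was higher in ectoderm-like cells for all 10 members, with overlapping libraries for Rarb and Rxrg. With library totals the median tested gene was itself lower in XEN-like than in ectoderm-like cells, at -0.16 (log2). The share of all genes with a higher mean in ectoderm-like cells was not counted.

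**Figure D4:**
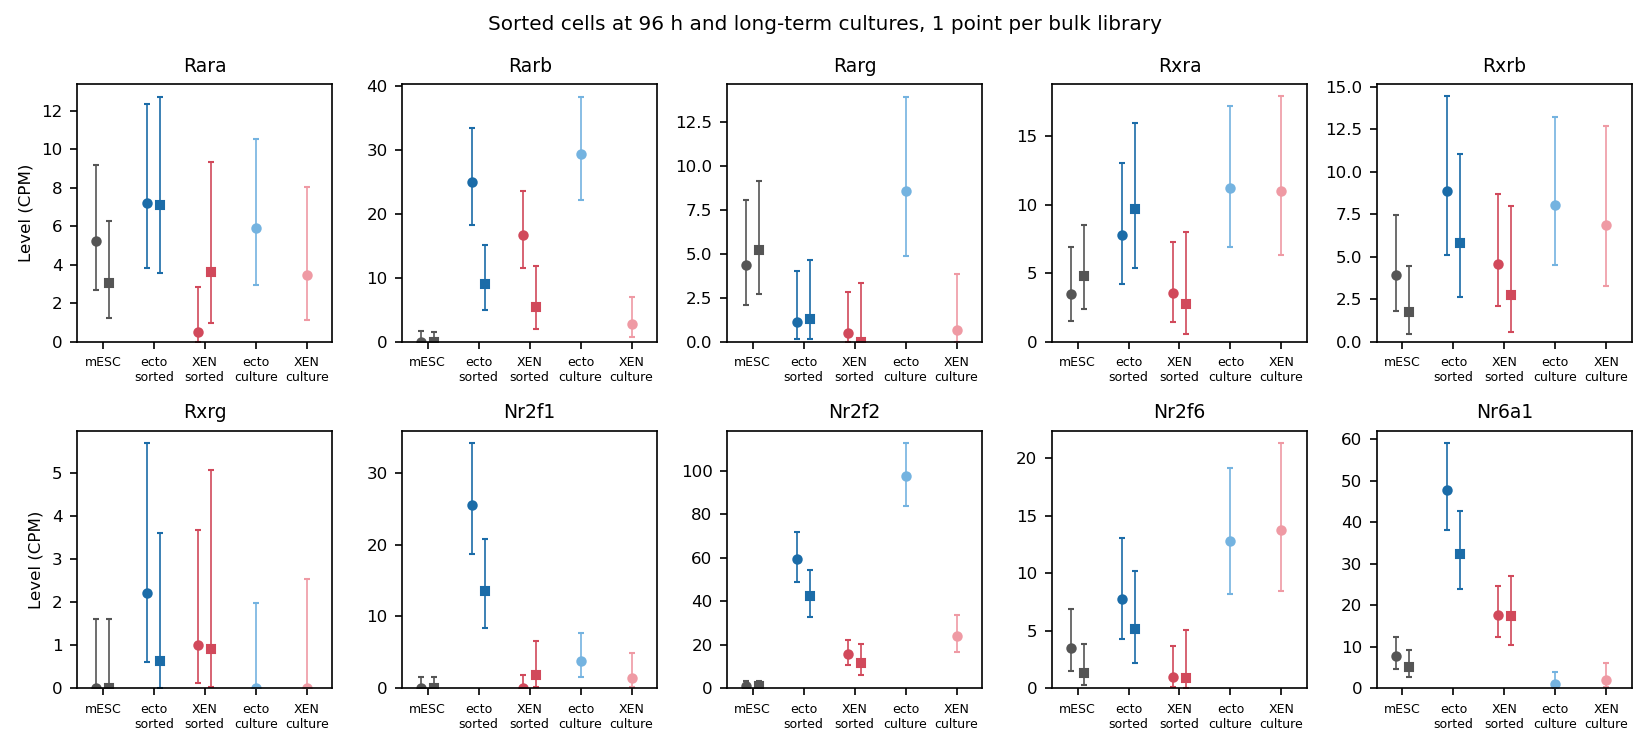
Level of each member, in CPM on a separate axis for each gene, in mESCs, in ectoderm-like (ecto) and XEN-like (XEN) cells sorted at 96 h and in the long-term cultures. Each point is 1 library with its exact 95% interval for counting error, circles for replicate 1 and squares for replicate 2. Nr2f2 was at 42.6 and 59.5 CPM in sorted ectoderm-like cells against 11.8 and 15.7 CPM in XEN-like cells, and Nr6a1 was at 1.07 and 2.07 CPM in the cultures.

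The gates sorted at 48 and 72 h, with 1 library each and no test, showed Nr2f2 highest in the top CD24 gate at both times, and Nr2f1 at 72 h. Cd24a followed the gates, at 19.4, 35.7, 60.2 and 127 CPM from Q1 to Q4 and at 49.7, 122 and 256 CPM from T1 to T3. Nr2f2 was at 2.01, 1.43, 0.940 and 9.47 CPM from Q1 to Q4 at 48 h, 4.72-fold higher in Q4 than in Q1 (1.34 to 25.4), and at 9.32, 37.1 and 46.8 CPM from T1 to T3 at 72 h, 5.02-fold higher in T3 than in T1 (2.68 to 10.2). Nr2f1 was at or below 1.89 CPM in every gate at 48 h and at 1.55, 7.94 and 13.8 CPM from T1 to T3, 8.89-fold higher in T3 (2.13 to 79.02). Nr2f6 was at 2.01, 2.14, 0.940 and 3.16 CPM from Q1 to Q4 and at 1.55, 5.29 and 4.61 CPM from T1 to T3, too few UMIs for the 2-fold rule. Nr6a1, by contrast, did not follow CD24, with 40.8, 32.8, 39.5 and 37.9 CPM at 48 h and 38.1, 40.6 and 39.1 CPM at 72 h. Rarg was at 8.69, 7.85, 8.46 and 3.16 CPM at 48 h and at 5.44, 0.882 and 0 CPM at 72 h, and Rxra fell from 13.98 to 7.94 and 4.61 CPM between T1 and T3. Rarb was highest in the middle quartiles, at 14.3 and 15.98 CPM against 6.69 CPM in Q1 and 7.58 CPM in Q4, with overlapping counting intervals, and was at 24.1, 21.2 and 17.7 CPM in the terciles.

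Beside these levels, markers of mESCs fell from 6664 to 4292 CPM between Q1 and Q4 and from 4643 to 1314 CPM between T1 and T3, and ectoderm-like markers rose from 885 to 1560 and from 1294 to 2492 CPM. Their part in the levels of the receptors was not tested. Between Q4 and Q1, 2 of 5 members were at least 2-fold higher (Rara and Nr2f2) and 1 was lower (Rarg), against 8.36% and 5.76% of genes. Rara fell short of 2-fold with TMM scaling and relative to Gapdh, both chosen after seeing the data. Between T3 and T1, 2 of 6 were higher (Nr2f1 and Nr2f2) and 1 was lower (Rxra), against 6.3% and 10.5%. In PDGFRA+/CD24- cells at 72 h, 5 of 6 members were at least 2-fold lower than in the summed PDGFRA- terciles (Rxra, Rxrb, Nr2f1, Nr2f2 and Nr6a1) and 0 were higher, against 20.2% and 9.62% of genes. XEN-like markers summed to 4380 CPM and ectoderm-like markers to 243 CPM in that gate. Nr6a1 was at 13.96 CPM there, 2.81-fold lower (1.73 to 4.80), Nr2f2 at 5.88 CPM, 5.25-fold lower (2.58 to 12.5), and Nr2f1 had no UMI, at least 3.53-fold lower. Rara had no UMI in that gate either, at least 3.05-fold lower, while Rarb was still at 11.02 CPM, 1.90-fold lower (1.08 to 3.56), and passed 2-fold relative to Gapdh.

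**Figure D5:**
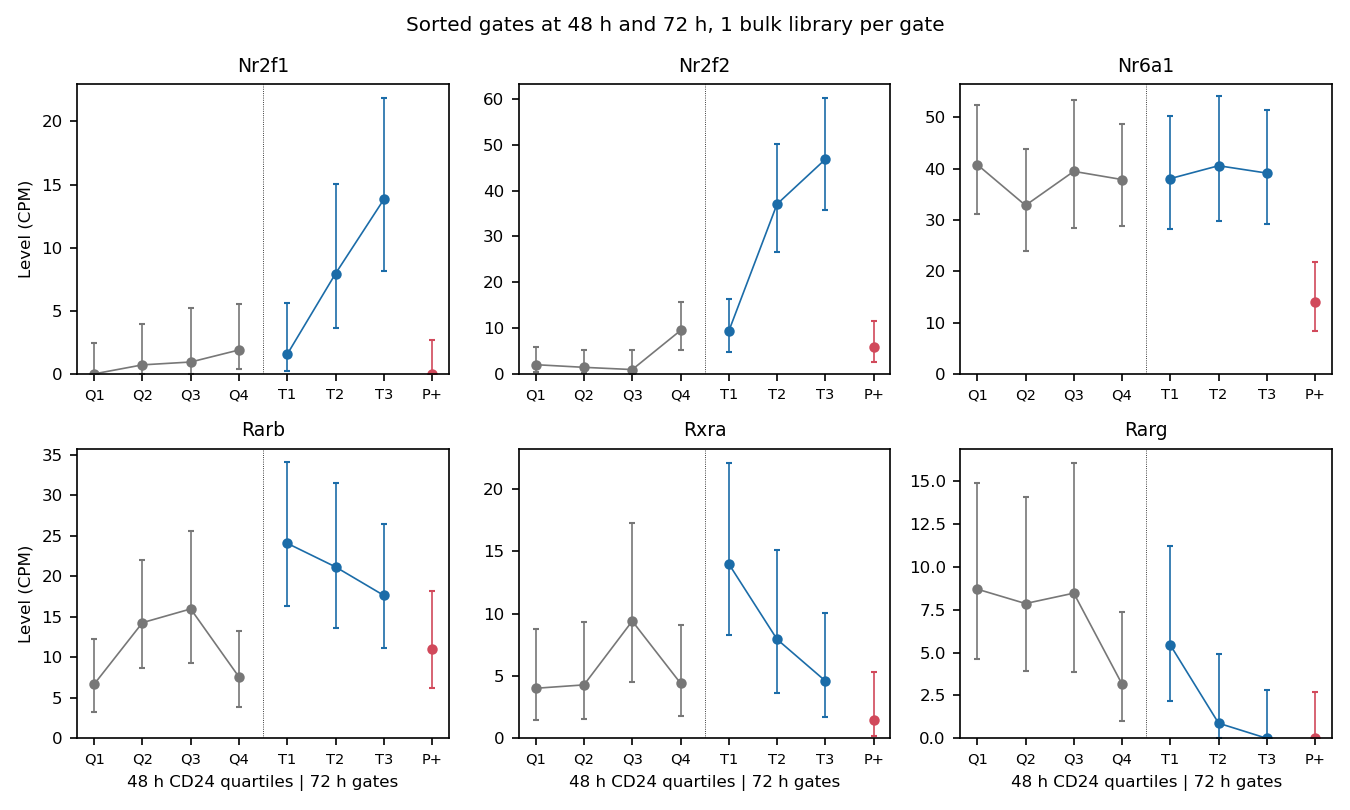
Levels of 6 members, in CPM, in the gates sorted at 48 h (PDGFRA- cells by CD24 quartile, Q1 to Q4) and at 72 h (PDGFRA- cells by CD24 tercile, T1 to T3, and PDGFRA+/CD24- cells, P+). Each point is 1 library with its exact 95% counting interval. Nr2f2 rose from 9.32 to 46.8 CPM between T1 and T3, while Nr6a1 was between 38.1 and 40.6 CPM in the terciles and at 13.96 CPM in PDGFRA+ cells.

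In long-term culture Nr6a1 was low in both lineages. Its level was 1.07 CPM in the ectoderm-like culture, 37.95-fold below the sorted cells (10.3 to 317), and 2.07 CPM in the XEN-like culture, 8.51-fold below (2.76 to 42.6), both from at most 3 UMIs. Nr2f2 remained, at 97.4 CPM in ectoderm-like cells, its highest bulk level, and at 24.1 CPM in XEN-like cells, 1.89-fold (1.52 to 2.33) and 1.68-fold (1.05 to 2.68) above the sorted cells. Nr2f1 was at 3.75 CPM in cultured ectoderm-like cells, 5.34-fold below the sorted cells (2.45 to 13.8), so that the COUP-TF genes changed in opposite directions there. Cultured ectoderm-like cells held 8.57 CPM of Rarg, 7.17-fold above the sorted cells (2.31 to 29.5), and cultured XEN-like cells 0.690 CPM. Nr2f6 was at 13.8 CPM in the XEN-like culture, 14.1-fold above the 3 UMIs of the sorted cells (4.18 to 74.1), and at 12.8 CPM in cultured ectoderm-like cells. Rxra was at 11.04 CPM in the XEN-like culture, 3.38-fold above (1.44 to 8.34), and at 11.2 CPM in cultured ectoderm-like cells. After culture of ectoderm-like cells 1 of 9 members was at least 2-fold higher (Rarg) and 2 were lower (Nr2f1 and Nr6a1), against 19.7% and 15.6% of genes, and in the XEN-like culture 2 of 6 were higher (Rxra and Nr2f6) and 2 lower (Rarb and Nr6a1), against 27% and 17.7%. Relative to Gapdh, a scaling chosen after seeing the data, 13 rather than 7 such changes were counted over both cultures, Nr2f2 in both among them. XEN-like markers summed to 2235 CPM in the ectoderm-like culture and 10097 CPM in the XEN-like culture. Ectoderm-like markers hardly separated the cultures, at 1653 CPM in the ectoderm-like and 1552 CPM in the XEN-like one. The part of both marker lists in these levels was not tested. The cultures differ from the sorted cells in medium, growth factors and time, which cannot be told apart.

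Within single cells the lineages were compared from 60 h on, with cells classed over 827 variable genes that left out the receptors. At 96 h, 73 cells fell into a cluster with 10 of 11 ectoderm-like markers higher and 64 into one with all 11 XEN-like markers higher. The ectoderm-like cluster also held XEN-like markers, which summed to 26.7 UMIs per cell scaled to a common total, against 10.4 for its ectoderm-like markers, and to 74.1 in the XEN-like cluster. The fold-ranked top genes of the first (Rps6kb1, Vcan and Fbn2 among them) held none of the ectoderm-like markers, and those of the second held Gata4 and also the mESC marker Dppa5a. Nr6a1 was at 1.78 UMIs per 10000 in ectoderm-like cells and at 0.628 in XEN-like ones at 96 h, a ratio of 2.84 (1.72 to 4.87), and Nr2f6 at 0.484 and 0.0598 (8.09, 1.95 to 71.6, from 2 UMIs in XEN-like cells). The ratio of Nr2f1 was 2.09 (1.00 to 4.67) and that of Nr2f2 1.18 (0.620 to 2.30). At 72 h, with 186 ectoderm-like and 25 XEN-like cells, Nr6a1 was at 2.00 and 0.927 UMIs per 10000 (2.16, 1.12 to 4.78) and Nr2f1 at 0.954 and 0.206 (4.64, 1.25 to 38.8). Rarb was at 0.792 and 0.824 at 72 h (ratio 0.962, 0.467 to 2.30), but the XEN-like level came from 8 UMIs in 2 of 25 cells. Of the ectoderm-like cells 24.2% held a Rarb UMI. Over 60, 72 and 96 h together the Rarb ratio was 2.64 (1.43 to 5.39), with the classes spread unequally over these times. With 1 plate per time these ratios carry no test, and cells classed by the bulk profiles numbered 47 ectoderm-like and 90 XEN-like at 96 h.

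At 48 h SMART-seq2 cells were split by their Pdgfra and Cd24a levels into 10 Pdgfra-high cells, 29 Cd24a-high cells (3 in both) and 46 others. Rarb was at 82.6 normalised RPKM (SD 84.7) in Cd24a-high cells, against 33.6 (SD 36.1) in Pdgfra-high cells and 37.7 (SD 44.8) in the others, with 79.3%, 60% and 60.9% of cells above 1. Nr6a1 was at 50.7 (SD 35.8), 25.9 (SD 15.8) and 41.9 (SD 29.7) in the same order. Nr2f6 was at 36.1, 28.1 and 16.7 and Nr2f1 at 7.60, 7.36 and 1.53, so that both were higher in each of the marked classes than in the other cells. For each of these 4 genes the largest SD over cells of a class exceeded the differences between the class means. Rara and Nr2f2 were also higher in Cd24a-high than in Pdgfra-high cells, at 22.3 and 26.1 against 7.60 and 16.5. The order was reversed for Rxra (34.6 in Pdgfra-high and 20.6 in Cd24a-high cells), Rxrb (23.8 and 19.5) and, slightly, Rarg. Rxrg was at 0 in both marked classes. For these members too, the largest SD of a class exceeded the differences.

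Per length, the order of the members by SMART-seq2 mean changed over time. In mESCs Nr6a1 (27.6 normalised RPKM) and Rarg (27.1) led and did not differ beyond their spread, followed by Rara (16.9) and Rxrb (14.6), then Nr2f6, Nr2f2, Rxra and Rarb between 8.33 and 11.4, and Nr2f1 (2.34) and Rxrg (0.158). The order at 12 and 24 h was again led by Rarg and Nr6a1, with Nr2f2, Nr2f1 and Rxrg at or below 3.50. At 48 h Rarb (52.2) and Nr6a1 (43.4) led, Nr2f6, Nr2f2, Rxra, Rara and Rxrb stood together between 18.7 and 24.4, and Rarg was at 11.2. The larger SD over cells exceeded the distance between every pair of neighbours in each of these orders.

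The genes around the receptors in the RA pathway are given from lists chosen with results of these data known, which share Crabp1, Hoxb2, Meis1, Esrrb and Nr0b1 with the marker lists above. Of 8 tested genes for retinoid binding and metabolism, edgeR called 6 higher and 0 lower in ectoderm-like cells than in mESCs (median log2 fold change 4.55, against 0.05 over all genes, of which 9.85% and 9.28% were called), and 4 and 0 in XEN-like cells (median 1.56, against -0.06, with 12.3% and 10.5% called). At an unadjusted p below 0.05, 0 and 2 were lower in these comparisons, and DESeq2 called 0 lower in both. Rbp4, Stra6, Rdh10 and Cyp26a1 had at most 2 UMIs in an mESC library and passed the filter on low counts through the sorted cells alone. Such genes could be called higher but hardly lower than in mESCs, so that part of the direction was fixed by the filter. Crabp2, which carries RA to its receptors, was at 1351 CPM in ectoderm-like cells and 17.7 CPM in both XEN-like cells and mESCs (log2 difference between the lineages -6.16 ± 0.34, adjusted p = 7.63e-06). Crabp1, its relative, was at 704 CPM in the former and 14.1 CPM in the latter. Cyp26a1, which degrades RA, went the other way, at 26.8 CPM in ectoderm-like cells and 209 CPM in XEN-like ones against 0.873 CPM in mESCs (3.05 ± 0.34, adjusted p = 0.000796 between the lineages). The RA uptake receptor Stra6 was higher in both, at 33.5 and 57.5 CPM against 0.655 CPM. Of 14 tested RA-responsive genes, 8 were higher and 2 lower in ectoderm-like cells (median 2.91), against 9.85% and 9.28% of all genes, and 2 higher and 3 lower in XEN-like cells (median 0.02), against 12.3% and 10.5%. Between the lineages 2 of them were higher and 7 lower in XEN-like cells (median -1.93, against -0.06; 6.99% and 5.74% of all genes), with Hoxb2 at 253 and 5.07 CPM in ectoderm-like and XEN-like cells, while Cdx1, at 21.6 CPM in mESCs, had no UMI in any sorted library. In this list too, Cyp26a1 and Hoxa2 passed the filter through the sorted cells alone, and Cdx1 through mESCs alone.

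Corepressors are recruited by unliganded and coactivators by liganded receptors. Of 17 tested, 2 were higher and 2 lower in ectoderm-like cells than in mESCs (median 0.24), against 9.85% and 9.28% of all genes, 0 and 2 in XEN-like cells (median -0.53), against 12.3% and 10.5%, and none was called between the lineages, where 4 had an unadjusted p below 0.05. DESeq2 called 1 of these 6, Kat2b in ectoderm-like cells, and 0 between the lineages. Nrip1, a corepressor of liganded nuclear receptors that RA is known to induce, was at 2.40 CPM in mESCs and 16.7 CPM in ectoderm-like cells (log2 2.44 ± 0.71, adjusted p = 0.0330), and the acetyltransferase Kat2b fell from 15.9 to 1.85 CPM (-3.41 ± 0.68, adjusted p = 0.00443). Of 39 other nuclear receptors only 7 had enough counts to be tested, and 3 of these, the pluripotency-associated Nr0b1, Esrrb and Nr5a2, were lower in both lineages. These 3 had at most 4 UMIs in a sorted library and passed the filter through mESCs alone. Nr0b1 was at 246 CPM in mESCs and 1.11 and 2.84 CPM in ectoderm-like and XEN-like cells, Esrrb at 73.1, 0.323 and 0.964 CPM, and Nr5a2 at 8.51 CPM with no UMI in the 4 sorted libraries. None of the 7 was higher in a sorted lineage, with 0 at an unadjusted p below 0.05 and 0 by DESeq2. Pou5f1 was lower in ectoderm-like cells (3.33 and 0.646 CPM, log2 -7.34 ± 0.64, adjusted p = 2.75e-05) and in XEN-like cells (60.4 and 16.4 CPM, -3.05 ± 0.46, adjusted p = 0.000736) than in mESCs.

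Over the 25 bulk libraries the genes with the most similar pattern were Sox9 (Pearson's r = 0.921), Zfp266 (0.914) and Marcksl1 (0.907) for Nr2f1, and Fam195b (0.927), Nedd9 (0.927) and Tpm1 (0.925) for Nr2f2, among 8706 genes with at least 200 UMIs. For Nr6a1 they were Srsf1 (0.913), Lin28a (0.911) and Cse1l (0.886), and for Rarb Raet1e (0.895), Ubtd2 (0.895) and Prmt2 (0.888). These correlations of log2(CPM + 1) describe libraries that share a time course and gates.

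Some members share exon sequence with a neighbour on the other strand in GENCODE M21: Rarb shares 1793 bases with Top2b, Nr2f6 shares 1622 with Ocel1, Nr2f2 shares 643 with B130024G19Rik and Nr2f1 shares 123 with A830082K12Rik. Whether counting used strand is not given in the sources used here, and without it reads of both genes in the shared part cannot be told apart. Top2b was at 6.12 and 10.4 CPM in the mESC libraries, where Rarb had no UMI, and at 34.9 to 67.2 CPM in ectoderm-like and 17.3 to 17.8 CPM in XEN-like cells. B130024G19Rik had 2 UMIs in all 25 libraries together, and A830082K12Rik had 14 and 1 UMIs in sorted ectoderm-like and XEN-like cells beside 67 and 2 of Nr2f1.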

How the data were processed

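Gene expression of E14 mESCs and their RA-differentiated progeny was measured in 25 bulk libraries, 9 SCRB-seq plates of 384 wells and 339 SMART-seq2 cells. For bulk and SCRB-seq the authors aligned reads to mouse RefSeq mRNAs of the mm10 set with BWA 0.7.4 and deposited UMI counts per gene, not normalized. For SMART-seq2 the authors deposited RPKM values from TopHat and Cuffnorm, so that read depth per cell is unknown. The members and gene lists were chosen with earlier results of these data known.

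Groups were taken from the labels. Bulk libraries held a median of 1665383 UMIs, and 2 genes with 3 damaged values, none a member, were left out. The sorted and mESC libraries were tested in 1 fit with edgeR 4.0.16 (R 4.3.3; filterByExpr, TMM, quasi-likelihood F test, Benjamini-Hochberg over 8947 genes, call at adjusted p below 0.05), without a block. On simulated counts with 200 of 8947 genes changed 4-fold, 85%, 80.5% and 75% were recovered (ectoderm-like against mESC, XEN-like against mESC, and between both), with 10, 5 and 3 false calls. Conditions with 1 library were scaled by library totals and compared by a 2-fold rule among genes with at least 10 UMIs in 1 library, with exact Poisson intervals. Wells of SCRB-seq above 2000 UMIs were used, summed per plate and thinned to 2000 UMIs for shares of cells. No doublet caller was run, since single cells were sorted into wells. Cells were classed by k-means on 1 minus Pearson's correlation at 96 h over 827 of the 829 most variable genes (2 members left out), then at other times by the highest correlation with the mean profiles of the 96 h clusters and mESCs. RPKM values were divided by the cell's total and multiplied by the median total at 0 h; 10206 text values, none in a member, were read as 0. Named genes are the 10 members, the 3 genes most alike to Rarb, Nr2f1, Nr2f2 and Nr6a1, and, from the lists, at most 4 genes called per comparison, by size of change, with Pou5f1 and Nanog. Gata4, Dppa5a, Cd24a, Pdgfra, Top2b and the other marker and neighbouring genes are named as checks and were chosen after their values were seen. Coordinates are those of GENCODE M21 on GRCm38. Alternatives were DESeq2 1.42.0, other scalings and filters, leaving out each library, a replicate block, other cell filters and classes, and another RPKM threshold.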

Additional observations from a re-analysis of the deposited data

Results flagged for a closer look

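Rarb moved in opposite directions when sorted cells were taken into long-term culture, and this difference was not tested, since there was 1 culture library per lineage. In the ectoderm-like culture Rarb was at 29.4 CPM, 1.67-fold the level of both sorted ectoderm-like libraries (1.14 to 2.45), and in the XEN-like culture at 2.76 CPM, 0.217-fold the level of both sorted XEN-like libraries (0.0563 to 0.601). The culture level lay above both sorted libraries in the ectoderm-like lineage (25.01 and 9.05 CPM) and below both in the XEN-like lineage (16.8 and 5.47 CPM).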

How the results depend on the processing

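In ectoderm-like cells against mESCs, as many members were called whichever library was left out (4 to 4 members), and between 2 and 3 were called in XEN-like cells, the additional one being Rarg, lower, without either ectoderm-like library. Between both lineages 0 to 2 members were called when a library was left out, 0 without the first ectoderm-like or the first XEN-like library. The fit with the replicate block of the 4 sorted libraries called 4 there, Nr6a1 (-1.12, adjusted p = 0.00357) and Rara (-1.93, adjusted p = 0.0365) in addition. Whether same-numbered sorted libraries came from the same differentiation is not given, as the labels hold only a number. Their deviations correlated at 0.323 between the lineages, and at 0.103 (ectoderm-like) and 0.0217 (XEN-like) with mESCs. The main fit, without a block, leaves such a pairing out. Nr6a1 was called in XEN-like cells against mESCs with DESeq2 size factors (adjusted p = 0.0454), with library totals (0.0334) and with the block over 6 libraries (0.0375). Leaving out 1 library reversed 3 log2 values, none of them called: Rxrb in XEN-like cells against mESCs was -0.11 without XEN-like replicate 1 and -0.25 without mESC replicate 2 (range -0.25 to 0.83), and Rarb between the lineages was 0.42 without ectoderm-like replicate 1 (range -1.37 to 0.42). In all, 218 values of members in these tests kept their direction and their side of the threshold, 3 reversed, 5 passed the threshold and 4 lost it. At 24 h the members changed at least 2-fold went from 4 to 1 with TMM factors, with the first mESC library alone and relative to Gapdh. In the cultures they went from 7 to 13 relative to Gapdh, an alternative chosen after seeing the data. Of 90 SCRB-seq shares of cells with a UMI, 19 stayed within their interval after thinning to 2000 UMIs, since fewer UMIs are read per cell. Another well filter moved 1 of 180 SCRB-seq levels beyond its interval, classing cells by bulk profiles moved 3 of 60, and the scaling and threshold of SMART-seq2 moved none of 40 values each. A decimal comma could not be tried, since no member held text. The cause of these changes was not tested unless stated.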
